A study of Mus musculus with 3 samples.

Results

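Granulosa cells (GCs) were followed here through 7 transcription factors (TFs) that were grouped as factors of their identity, though some are better known from other cells: Foxl2, Foxo1, Foxo3, Gata4, Gata6, Wt1 and Nr2f2. These 7 rows were taken by symbol from a table of 24958 genes, all 7 were found, and each had between 5450 (Foxo3) and 50871 (Foxo1) UMIs (unique molecular identifiers, each counting 1 captured transcript) over the whole table. The samples were mouse ovaries taken at 0, 1 or 6 h of treatment with hCG (human chorionic gonadotropin), the hormone that stands in for the ovulatory LH surge, with 1 droplet library (10x Genomics) at each time. The linked paper describes Kunming mice primed with PMSG, a gonadotropin that makes follicles grow, but the labels of these libraries give neither strain, age, priming nor the number of pooled animals. One table held the 31776 cells of all libraries.

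In that table each cell's barcode ends in 1, 2 or 3. The endings gave 10384, 9917 and 11475 cells, called barcode sets 1, 2 and 3 below, and 112 barcode sequences occurred in more than 1 set. The libraries are also numbered in the labels, yet no source used here says that the endings follow those numbers, so no set was given a time after hCG. Since there was 1 library at each time and cells are not replicates, no test was made and no p-value is given. A level is the number of UMIs of a gene per 10000 UMIs of all cells in a group. Its 95% interval (exact Poisson) and that of a ratio (exact conditional binomial) cover counting error only, not the spread between animals or libraries. A ratio was called when it was at least 2-fold with at least 50 UMIs over both groups, and all the genes that met the UMI minimum give the background share. The median cell held 6093, 6352 and 6524 UMIs in sets 1, 2 and 3.

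FOXL2 is a forkhead factor that keeps adult GCs from taking on a testis-like fate. FOXO1 and FOXO3 are forkhead factors that insulin and gonadotropin signalling through AKT moves out of the nucleus. FOXO1 is abundant in GCs of growing follicles, whereas FOXO3 is best known for holding the oocytes of primordial follicles at rest. GATA4 and GATA6 are zinc finger factors that drive steroidogenic genes in GCs, theca cells and luteal cells. WT1 is a zinc finger factor of the gonadal ridge and of the GCs of small follicles, and it is also found in the ovarian surface epithelium. NR2F2 (COUP-TFII) is an orphan nuclear receptor typical of the theca and stroma, of veins and of lymphatic vessels.

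Foxl2 is a gene of 1 exon at chr9:98955288-98958543 on the plus strand of GRCm38 (mm10), Foxo1 spans 3 exons at chr3:52268336-52353221 on the plus strand and Nr2f2 lies on the minus strand at chr7:70351944-70366735. Foxo3 (chr10:42181841-42276755, minus strand), Gata4 (chr14:63198922-63271692, minus strand), and Wt1 (chr2:105126529-105173616, plus strand) are also protein-coding genes of the same annotation (GENCODE M21). The sequences before the start sites of Foxo1 and Nr2f2 are printed because the levels of these genes stood at opposite ends of the ovary, Foxo1 being highest in GCs and Nr2f2 in the stroma. They are RefSeq promoters of GRCm38.p6, cut so that they end before the annotated gene, at chr3:52268087-52268335 (plus strand) and chr7:70366747-70366996 (minus strand). Capitals mark GC boxes (GGGCGG or its reverse CCGCCC).
Foxo1: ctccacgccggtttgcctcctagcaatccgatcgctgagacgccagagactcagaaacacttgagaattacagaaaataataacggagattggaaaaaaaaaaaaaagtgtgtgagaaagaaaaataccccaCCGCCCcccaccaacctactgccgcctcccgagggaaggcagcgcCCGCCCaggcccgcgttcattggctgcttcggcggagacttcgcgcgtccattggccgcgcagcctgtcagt
Nr2f2: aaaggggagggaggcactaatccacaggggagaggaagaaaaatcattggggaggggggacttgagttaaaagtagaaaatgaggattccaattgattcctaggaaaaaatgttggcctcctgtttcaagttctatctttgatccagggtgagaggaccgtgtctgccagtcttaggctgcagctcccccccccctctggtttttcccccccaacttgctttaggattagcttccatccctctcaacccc

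The Foxo1 stretch held 2 GC boxes and a GC content of 55.8%, and the Nr2f2 stretch held none and 50%. Over the window of 250 bases before to 50 after the start, a GC box was found in 35.7% of 32851 mouse promoters. The forkhead core (TAAACA, 13.4% of promoters), its longer FOXO form (GTAAACA, 3.65%), the GATA core (GATAA, 25.4%), the NR5A site (AAGGTCA, 4.72%) and the E-box (CACGTG, 7.15%) were searched on both strands. The short cAMP-response motif TGACG (20.8% of promoters) was searched as well, and 1 was found, in the Foxo3 window. None of the other 5 was found in the windows of the 4 members with a RefSeq promoter that were searched, Foxl2, Foxo1, Foxo3 and Nr2f2. Gata4, Gata6 and Wt1 were not searched. The result says only that these letters are not in those windows. The longer FOXO form contains the forkhead core, so these 2 searches overlap.

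Cells were clustered in each barcode set without the 7 members and the listed genes, 57 genes in all, and clusters were named from marker genes. Of 73 clusters, 26 were granulosa-like, with 4137, 4272 and 5120 cells in sets 1, 2 and 3. Theca-like cells numbered 1277, 512 and 715 and stroma-like cells 3006, 2123 and 3673, and 10 clusters with 2505 cells stayed unnamed. The summed level of the 11 granulosa markers (such as Inha, Amh, Fshr and Cyp19a1) was 150.1, 151.1 and 55.1 in granulosa-like cells, against 13.8, 16.8 and 11.6 in theca-like and 6.36, 6.12 and 2.27 in stroma-like cells. The classes were named from these same markers, so this separation follows from the naming and does not test it. The granulosa marker level in GCs was lower in set 3. Theca markers also reached 36.5, 35.4 and 31.0 in granulosa-like cells, against 190, 186 and 139 in theca-like cells, and the part of transcripts carried over between cells in any ratio was not tested.

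**Figure D1:**
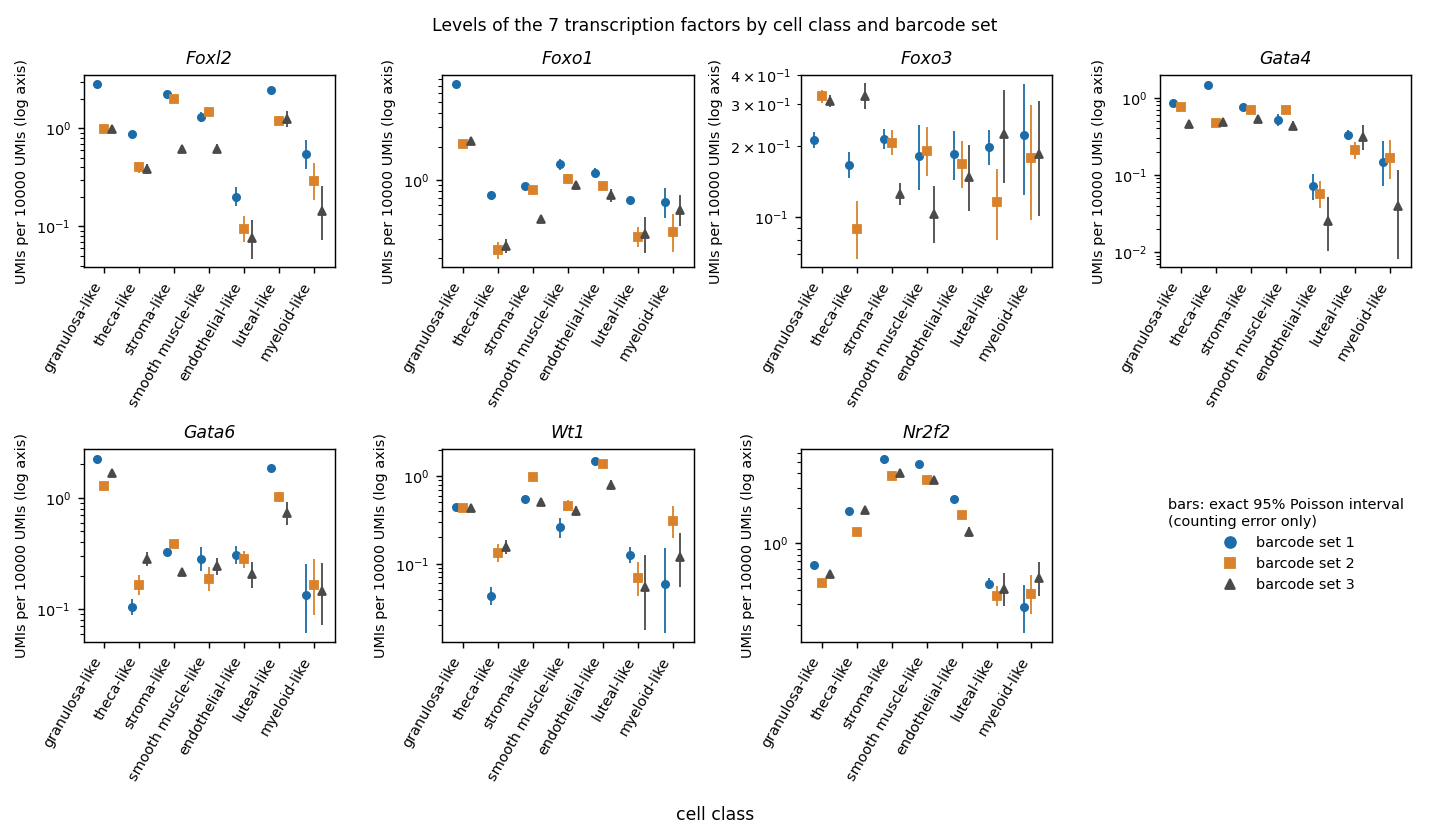
Levels of the 7 TF genes (UMIs per 10000 UMIs, log axis) in each class of cell, with 1 point for each of barcode sets 1, 2 and 3 and bars for the exact 95% Poisson interval. Foxo1 was highest in granulosa-like cells in every set (7.27, 2.10 and 2.23), as was Gata6 apart from the 20 epithelial-like cells of set 2 (1.79), Nr2f2 was highest in stroma-like cells (5.33, 3.75 and 3.99), and Foxl2 was at 2.82, 0.977 and 0.976 in granulosa-like and at 2.21, 2.01 and 0.613 in stroma-like cells.

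Among the 7 TF genes, Foxo1, Gata6, Wt1 and Foxl2 were at least 2-fold higher in granulosa-like than in theca-like cells in all 3 sets, Foxo3 joined them in set 2, and Nr2f2 was lower in all 3. That made 4, 5 and 4 of 7 members called higher in sets 1, 2 and 3, where 17.7%, 21.5% and 17.5% of all genes were called higher. It left 1 of 7 called lower in each set, where 10.7%, 9.19% and 8.24% of genes were. Against stroma-like cells 2, 2 and 3 members were called higher (13.3%, 14.5% and 17.5% of all genes): Foxo1 and Gata6 in every set, and Foxo3 in set 3. Nr2f2 was called lower than in stroma in every set, and Foxl2 and Wt1 were called lower in set 2 (backgrounds of 13.8%, 17.1% and 12.1% of all genes). The Foxo3 call in set 3 rests on 1 cluster of 1644 cells that scored higher for luteal than for granulosa markers and was kept among GCs, since the ratio was 2.46 with it and 1.96 without it. The set 2 calls against stroma were lost for Wt1 with cells gated by markers (0.553) and for Foxo1 with only clusters of granulosa score 0.3 or more (1.85). With that score Wt1 was past 2-fold lower than in stroma in set 1 as well (0.366).

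Foxo1 had levels of 7.27, 2.10 and 2.23 in granulosa-like cells of sets 1, 2 and 3. Its theca-like levels were 0.735, 0.237 and 0.258, and its stroma-like levels 0.887, 0.812 and 0.449. As a class, GCs were thus above both neighbours in each set, by 9.89-fold (interval 9.32 to 10.5), 8.88-fold (7.50 to 10.6) and 8.64-fold (7.50 to 10.0) over theca. Over stroma the ratio was 8.19, 2.59 and 4.96. This did not hold for every cluster. In set 1 the lowest granulosa-like cluster (2.27) was above the highest stroma-like one (1.60). In sets 2 and 3 the lowest granulosa-like clusters (0.806 and 0.672) were below the highest stroma-like ones (1.26 and 0.877). Smooth muscle-like cells came second, with 1.39, 1.02 and 0.901, and endothelial-like cells followed with 1.17, 0.895 and 0.734, with intervals that overlapped those of smooth muscle in each set. Theca-like, luteal-like and myeloid-like cells lay between 0.237 and 0.735 in all sets.

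Gata6, a protein-coding gene at chr18:11052064-11085635 on the plus strand, was the member with the steepest step from granulosa to theca in set 1. Granulosa-like cells had levels of 2.25, 1.28 and 1.67, and theca-like cells had 0.105, 0.165 and 0.283. In sets 1 and 2 the theca-like levels were no higher than those of myeloid-like cells (0.133 and 0.165). The granulosa to theca ratios were 21.5 (18.4 to 25.3), 7.78 (6.35 to 9.62) and 5.89 (5.14 to 6.78). In set 3 it was only 1.13 when cells were gated one by one on their markers instead of by cluster, which redraws the granulosa and the theca cells together. Luteal-like cells were the class nearest to GCs, with 1.86, 1.02 and 0.729. Stroma-like cells stood at 0.325, 0.386 and 0.216, which GCs exceeded 6.91-fold, 3.32-fold and 7.73-fold.

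Gata4, the close relative of Gata6, did not mark GCs off from their neighbours. Its granulosa-like levels were 0.847, 0.751 and 0.450, its theca-like levels 1.47, 0.465 and 0.479, and its stroma-like levels 0.751, 0.689 and 0.531. In set 1 theca was the class with the highest level, and the granulosa to theca ratio was 0.574 (0.543 to 0.608). Set 2 gave a ratio of 1.61 (1.42 to 1.84), and set 3 gave 0.940 (0.839 to 1.05), an interval that takes in 1. Endothelial-like cells had 0.0716, 0.0567 and 0.0253, so that GCs exceeded them 11.8-fold, 13.2-fold and 17.8-fold.

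Foxl2 levels in granulosa-like cells were 2.82, 0.977 and 0.976. Stroma-like cells, where Foxl2 is also known to be expressed in the mouse, had 2.21, 2.01 and 0.613, and theca-like cells had 0.874, 0.402 and 0.389. GCs exceeded theca 3.22-fold (3.04 to 3.42), 2.43-fold (2.13 to 2.79) and 2.51-fold (2.23 to 2.83), and in set 2 this was 1.54 with cells gated by markers. Against stroma the ratio turned between sets, being 1.27 (1.23 to 1.32), 0.486 (0.461 to 0.511) and 1.59 (1.5 to 1.69) in order. The stroma-like cells of set 2 lacked a cluster of 526 cells with low Foxl2 (0.397) that stayed unnamed. Clusters with the same leading genes Thbd and Lamc3 were counted as stroma-like in sets 1 and 3 (1.52 and 0.469), so the classes are not alike. The stroma-like clusters that set 2 did hold had Foxl2 at 3.0, 1.24 and 0.793, against 0.977 in its GCs. The 2-fold call in set 2 was narrow and was lost with a coarser clustering (0.502), with unnamed clusters led by Rnase1 added (0.521), with marker gates (0.604) and with the mean of the deposited natural log values (0.665), each still below 1. Luteal-like cells were near GCs, at 2.48, 1.2 and 1.25 (granulosa to luteal ratios of 1.13, 0.815 and 0.779). The smooth muscle-like clusters of set 2 were above its GCs (0.977), at 1.52 where led by Actg2 and 1.32 where led by Rgs5. Matching clusters were below GCs elsewhere, with 1.33 and 1.29 (set 1) or 0.644 and 0.574 (set 3). Endothelial-like cells were lowest in each set, at 0.202, 0.0946 and 0.0759, and in set 3 their interval overlapped that of myeloid-like cells (0.146).

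Wt1 was not highest in GCs as a class. Its granulosa-like levels were 0.447, 0.438 and 0.437, close to each other in the 3 sets. Endothelial-like cells had 1.5, 1.36 and 0.799, and stroma-like cells 0.549, 0.988 and 0.507. The granulosa to endothelial ratio was therefore 0.299, 0.321 and 0.548. Theca-like cells were well below, at 0.0432, 0.134 and 0.157, which gave granulosa to theca ratios of 10.3 (8.08 to 13.5), 3.27 (2.60 to 4.16) and 2.79 (2.32 to 3.39). In sets 1 and 2 these theca-like levels were below those of myeloid-like cells (0.0592 and 0.305). A small epithelial-like cluster of 20 cells in set 2, the class in which WT1 is a known marker, had a Wt1 level of 4.96 (4.08 to 5.97).

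Nr2f2 showed the reverse order. Stroma-like cells had 5.33, 3.75 and 3.99, smooth muscle-like cells 4.78, 3.47 and 3.48, and theca-like cells 1.90, 1.26 and 1.95, against 0.651, 0.453 and 0.545 in granulosa-like cells. The granulosa to stroma ratio was 0.122, 0.121 and 0.136 and the granulosa to theca ratio 0.343, 0.361 and 0.279. Myeloid-like cells, which should lack the gene, had 0.281, 0.369 and 0.503, and in sets 2 and 3 the ratio of GCs to them had an interval that takes in 1 (0.852 to 1.84 and 0.787 to 1.54). Endothelial-like clusters differed widely in Nr2f2: the cluster led by the lymphatic chemokine gene Ccl21a had an Nr2f2 level of 3.98 in set 1, the clusters led by Ctla2a had 2.07, 1.91 and 1.39, and those led by the elastin gene Eln had 0.245 in set 2 and 0.404 in set 3. Wt1 differed between the same clusters, at 0.164 in the Ccl21a-led and 1.77 in the Ctla2a-led cluster of set 1.

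Foxo3, the member with the fewest UMIs, had no class that was highest in all 3 sets. Its granulosa-like levels were 0.213, 0.324 and 0.309, its stroma-like levels 0.215, 0.207 and 0.126, and its theca-like levels 0.167, 0.0893 and 0.325. The granulosa to theca ratios were 1.28 (1.10 to 1.48), 3.63 (2.75 to 4.89) and 0.951 (0.829 to 1.09).

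GCs themselves were not one population for these genes. Matched kinds of granulosa-like cluster occurred in every set and were told apart by a gene among their leading ones, a choice made after the clusters were seen. Clusters led by Gatm, a creatine synthesis enzyme gene, held 56, 305 and 281 cells in sets 1, 2 and 3. Those led by Slc18a2, a vesicular monoamine transporter gene, held 503, 292 and 583 cells. Those led by Comp, a cartilage matrix gene, held 858, 1082 and 1644 cells. The summed level of the preantral markers was 28.0, 18.1 and 20.7 in Gatm-led, 6.55, 1.69 and 7.99 in Slc18a2-led and 0.459, 0.318 and 3.18 in Comp-led clusters. Antral mural markers reached 116.2, 95 and 2.31 in Comp-led clusters. Those clusters were named antral mural-like in sets 1 and 2 only. No cluster of set 3 passed for antral mural-like, on a score scaled to the highest cluster of all 3 sets. The cluster with Comp in set 3 was led by Npy and Lyve1, so the 3 sets were matched there by Comp and not by these markers. That cluster of set 3 is also the one that scored higher for luteal than for granulosa markers: its summed luteal marker level was 29.7, against 9.60 and 14.0 in the Comp-led clusters of sets 1 and 2. Of the Slc18a2-led clusters, that of set 2 was not named preantral-like, and its antral mural markers (3.94) were above its preantral ones.

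Wt1 had the widest range over these kinds. Its level was 6.39, 3.15 and 2.27 in Gatm-led clusters of sets 1, 2 and 3, 1.56, 0.706 and 1.21 in Slc18a2-led clusters, and 0.0315, 0.0481 and 0.164 in Comp-led clusters. The Comp-led over Gatm-led ratio was 0.00493 (0.00288 to 0.00796), 0.0153 (0.0105 to 0.0215) and 0.0722 (0.0599 to 0.0867). Between its lowest and highest granulosa-like cluster Wt1 spanned 217-fold, 65.5-fold and 51.9-fold, against 1.62-fold, 1.87-fold and 1.72-fold for Nr2f2. The lowest clusters held only 10, 34 and 22 Wt1 UMIs, at levels below those of myeloid-like clusters, so the size of these spans rests on few UMIs. After thinning every cell to 3000 UMIs, 8.32%, 8.29% and 11.1% of granulosa-like cells had a Wt1 UMI, against 2.53%, 5.56% and 2.04% of myeloid-like cells, whose set 2 interval (2.07 to 11.7) takes in the granulosa share.

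**Figure D2:**
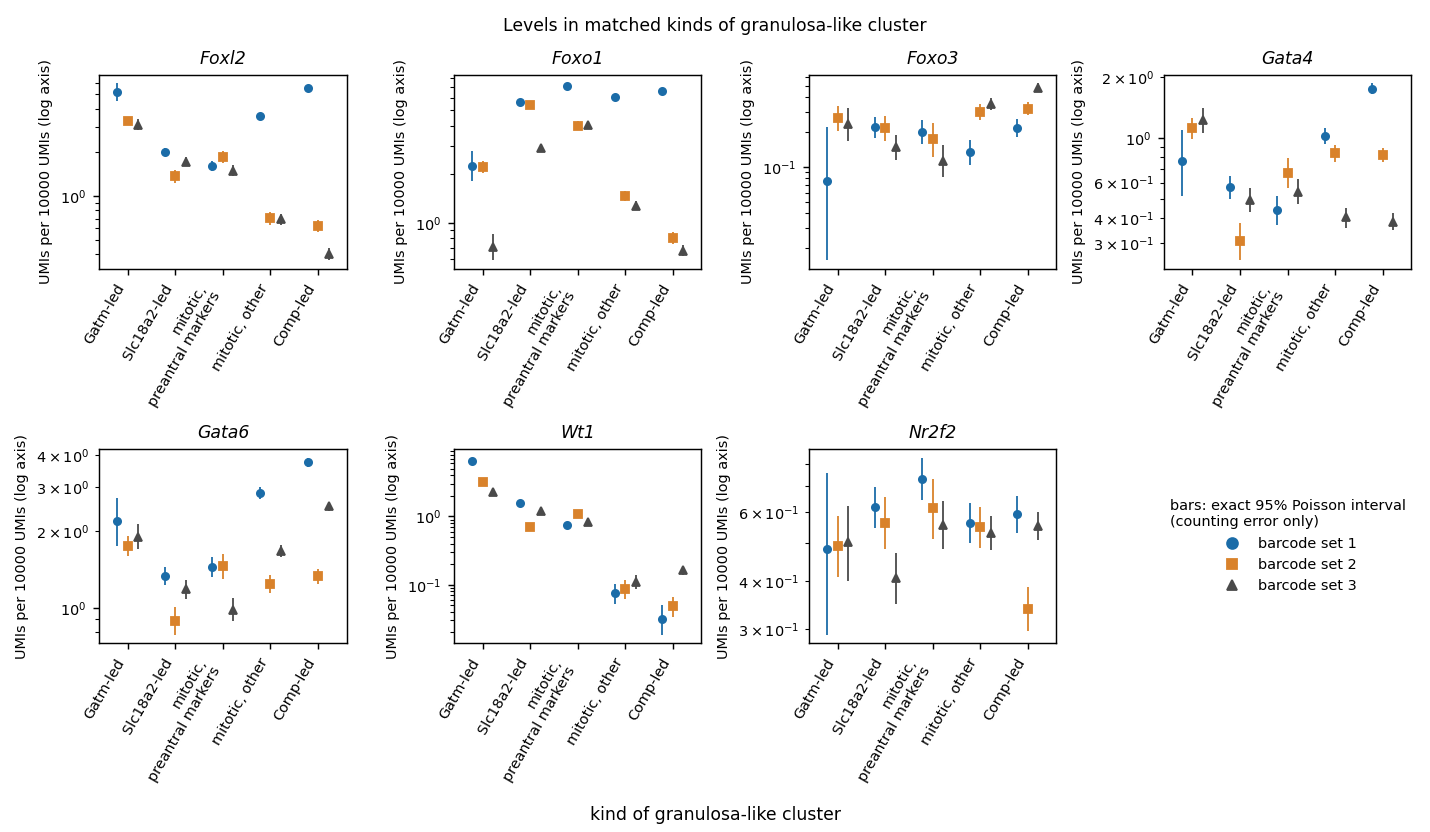
Levels of the 7 TF genes (UMIs per 10000 UMIs, log axes that differ between panels) in 5 kinds of granulosa-like cluster that occurred in each barcode set, with exact 95% Poisson intervals as bars. Wt1 was lowest in Comp-led clusters in sets 1 and 2 (0.0315 and 0.0481). In set 3 the other dividing clusters (0.0996 in the larger, of 554 cells) were below the Comp-led cluster (0.164). In Comp-led clusters Foxl2 and Foxo1 were high in set 1 (5.50 and 6.60). They were low in sets 2 and 3 (0.621 and 0.400 for Foxl2, 0.806 and 0.672 for Foxo1).

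Foxl2 and Foxo1 differed between Gatm-led and Slc18a2-led clusters in opposite directions. Foxl2 had levels of 5.19, 3.28 and 3.10 in Gatm-led and 2.01, 1.37 and 1.73 in Slc18a2-led clusters, ratios of 2.58, 2.41 and 1.80. Foxo1 had 2.27, 2.22 and 0.709 in Gatm-led and 5.60, 5.41 and 2.92 in Slc18a2-led clusters, ratios of 0.405, 0.410 and 0.243. Wt1 was higher in Gatm-led clusters like Foxl2, with ratios of 4.10, 4.46 and 1.87, as was Gata4 in sets 2 and 3, with ratios of 3.63 and 2.50 (1.34 in set 1, interval 0.887 to 1.97). Foxo3 was called lower in set 1 on few UMIs, with an interval of 0.0697 to 1.04. Hence 4, 4 and 2 of 7 members were called between these kinds, where 18.3%, 11.5% and 8.25% of all genes were in either direction.

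In Comp-led clusters Foxl2 and Foxo1 differed more between sets than in the other 4 kinds compared. Foxl2 was at 5.50, 0.621 and 0.400 in sets 1, 2 and 3, and Foxo1 at 6.60, 0.806 and 0.672. The ratio of set 2 to set 1 was 0.113 (0.102 to 0.125) for Foxl2 and 0.122 (0.112 to 0.133) for Foxo1, and that of set 3 to set 1 was 0.0728 (0.0656 to 0.0807) and 0.102 (0.0939 to 0.110). Gata4 was also lower, at 1.75, 0.820 and 0.384. Gata6 was at 3.74, 1.33 and 2.51, so that set 3 was nearer to set 1 (ratio 0.671) than set 2 was (0.355). Foxo3 and Wt1 ran the other way, Foxo3 with 0.217, 0.319 and 0.483 and Wt1 with 5.19-fold its low set 1 level in set 3 (3.19 to 8.97), and Nr2f2 had 0.594, 0.339 and 0.554. Background shares were 43.7% of all genes for set 2 over set 1 and 31.9% for set 3 over set 1 in either direction, and the median log2 ratio of all genes was -0.68 and -0.14. The part of the luteal markers in the set 3 values was not tested.

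In Gatm-led clusters the same 2 genes differed less between sets. The set 2 to set 1 ratio was 0.632 for Foxl2 and 0.979 for Foxo1 (0.782 to 1.24), and the set 3 to set 1 ratio 0.598 and 0.313. In Slc18a2-led clusters these ratios were 0.678 and 0.967 for set 2 and 0.859 and 0.521 for set 3. Comp-led ratios of Foxl2 were hence further from 1 than those of Gatm-led and Slc18a2-led clusters, with intervals that did not overlap.

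Across the named subtypes, 3 of 7 members were called between antral mural-like and preantral-like cells in set 1, where 17.6% of all genes were called in either direction, and 3 in set 2, where 40.1% were, so the count of set 2 was near the background. Wt1 was lower in antral mural-like cells in both, with ratios of 0.0275 and 0.0153. Gata4 (2.08) and Gata6 (2.12) were just past 2-fold in set 1, but not with the 50 most abundant genes left out of the totals (1.95 and 1.98), with a finer clustering (1.196 and 1.4997), with only clusters of granulosa score 0.3 or more (1.60 and 1.36), with the natural log mean (1.28 and 1.52) or with cells gated by markers (1.14 and 1.42). With the score of 0.3 or more, Foxo1 (3.17) and Foxo3 (2.93) were past 2-fold in set 1 instead. The preantral-like class of set 1 was then only the 56 Gatm-led cells, which held 3 Foxo3 UMIs, so that Foxo3 value rests on very few UMIs. In set 2 the other calls were Foxl2 (0.189) and Foxo1 (0.363, but 0.693 with cells gated by markers). In set 1 the ratios of Foxl2 and Foxo1 were 1.73 and 1.35. The preantral-like class was however made of different clusters: only the 305 Gatm-led cells in set 2, and 56 Gatm-led with 503 Slc18a2-led cells in set 1. So was the antral mural-like class, with 1864 cells of 3 clusters in set 1 and only the 1082 Comp-led cells in set 2. In set 1 Foxl2 was at 5.50 in the Comp-led and 5.19 in the Gatm-led cluster, and Foxo1 at 6.60 and 2.27. The ratios that follow keep the whole antral mural-like class of each set. Against Gatm-led cells alone the ratio of Foxl2 was 0.761 in set 1 and 0.189 in set 2, and that of Foxo1 was 3.17 and 0.363. Against Slc18a2-led cells the ratio of Foxl2 was 1.96 and 0.454, and that of Foxo1 was 1.28 and 0.149.

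Dividing GCs, in clusters with a summed mitotic marker level between 23.8 and 36.4, also differed in Wt1. Preantral markers were at 1.72, 2.93 and 3.40 in the highest of these clusters and at 0.456, 0.339 and 2.15 in the others. All are far below the Gatm-led levels, and the antral mural markers of the highest were at 7.45, 5.34 and 3.08. The cluster with the highest preantral marker level (293, 133 and 298 cells) had 9.92-fold, 12.5-fold and 7.42-fold the Wt1 level of the other dividing clusters (427, 425 and 604 cells). In set 3 the latter took in 50 cells led by Ptx3, with no mitotic gene among the leading ones. Foxl2 was at 1.61, 1.86 and 1.5 in the former and at 3.56, 0.704 and 0.691 in the latter, so the ratio was 0.453 in set 1 and 2.64 and 2.17 in sets 2 and 3. Foxo1 ratios between them were 1.16, 2.73 and 3.20. Of the 7 members 3, 3 and 4 were called, where 11.1%, 24.6% and 22.4% of all genes were in either direction.

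The highest Foxo1 levels among granulosa-like clusters were 10.1 in set 1, in 994 cells led by Rgs13, 5.41 in set 2, in the Slc18a2-led cluster, and 8.90 in set 3, in 369 cells led by 1110032F04Rik. In the Rgs13-led cluster Foxl2 was at its lowest of set 1, at 0.843. Clusters led by Rnase1, which stayed unnamed (439 cells in set 1 and 489 in set 2), had Foxo1 levels of 9.16 and 3.82 and Wt1 levels of 1.40 and 0.898, values in the range of GCs.

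In set 2 the 468 cells led by Gm45650 took the cumulus expansion name by score, but the markers do not set them apart. Their cumulus expansion markers (35.5) were below those of the Comp-led cluster of the same set (44.95), and their antral mural markers were at 88.0. These cells had levels of 0.499 for Foxl2, 1.10 for Foxo1 and 0.0489 for Wt1. The 390 atretic-like cells of set 2 (summed atretic marker level 15.3, against 4.94 over all GCs, 19.0 in the unnamed Rnase1-led and 21.3 in the stroma-like cells of the set, so these markers were not particular to them) had 0.809 for Foxl2, 3.48 for Foxo1 and 0.384 for Foxo3.

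In the stroma Wt1 and Gata6 differed between clusters in every set. The stroma-like clusters led by Sfrp1, a secreted Wnt antagonist gene, had Foxl2 levels of 3.94, 3.0 and 0.896, and those led by the matrix gene Mfap4 had 2.37, 1.24 and 0.665. Wt1 was at 1.77, 1.67 and 1.31 in Sfrp1-led clusters, 6.25-fold, 3.93-fold and 2.88-fold its Mfap4-led level. Gata6 had a ratio of 5.48, 3.43 and 2.13 between the same clusters. In set 2 Foxl2 (2.42) and Foxo1 (3.0) were also past 2-fold, while Foxo3, Gata4 and Nr2f2 were not in any set. That made 2, 4 and 2 of 7 members called, where 4.81%, 5.99% and 3.01% of all genes were called in either direction.

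Between the barcode sets, Foxl2 and Foxo1 were the 2 members of 7 called in granulosa-like cells, lower in set 2 than in set 1 and lower in set 3 than in set 1. Lower calls made up 18.2% and 13.3% of all genes in these comparisons. From set 2 to set 3 none of the 7 was called (27.4% of all genes in either direction). The medians over all genes were shifted too, by -0.45, -0.12 and 0.31 on the log2 scale for set 2 over 1, set 3 over 1 and set 3 over 2. A set may stand for 1 library, so the animals, their handling and the time after hCG cannot be told apart.

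Foxl2 in GCs was 0.347 of its set 1 level in set 2 (0.333 to 0.361) and 0.347 in set 3 (0.334 to 0.360). Foxo1 was at 0.289 (0.282 to 0.297) and 0.307 (0.299 to 0.314). Relative to the median gene these are log2 differences that stay below -1. Without the cluster of higher luteal score the set 3 to set 1 ratios were 0.420 for Foxl2 and 0.384 for Foxo1. Gata6 was at 0.571 and 0.742, Gata4 at 0.887 and 0.531, Nr2f2 at 0.696 and 0.837, and Foxo3 at 1.52 and 1.45, none of them 2-fold apart. Wt1 was at 0.980 (0.910 to 1.06) and 0.979 (0.912 to 1.05). With only the clusters of the highest granulosa marker scores (at least 0.3), Wt1 became 2.02 and 2.18, Gata6 0.445 in set 2 and Gata4 0.390 in set 3, which made 4 calls in each comparison, so the Wt1 value in GCs depends on which clusters are counted.

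**Figure D3:**
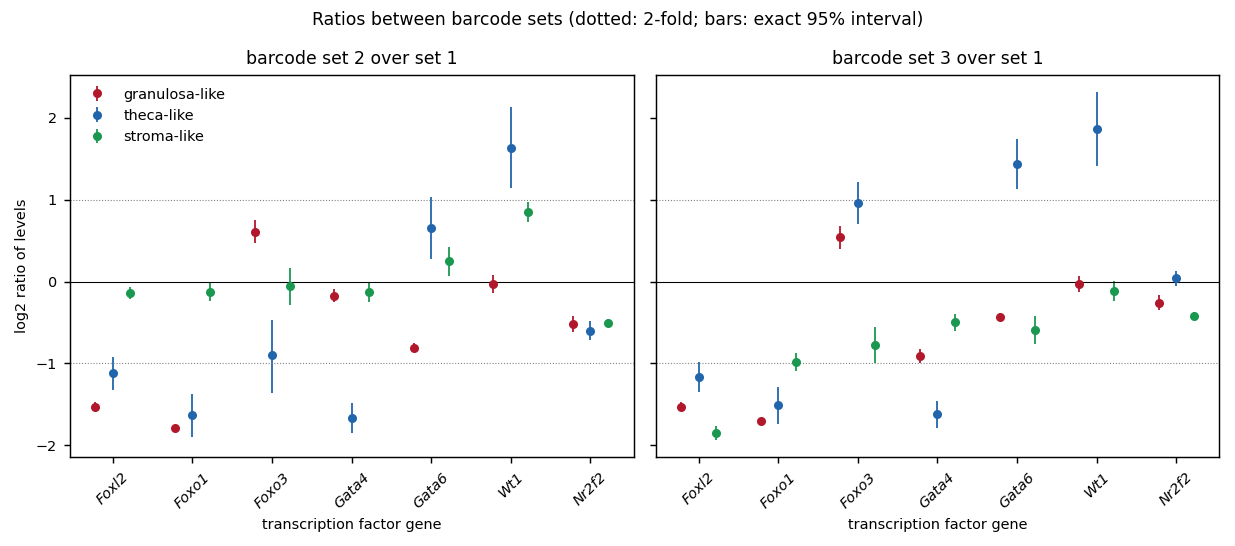
Log2 ratios of levels between barcode sets for the 7 TF genes in granulosa-like, theca-like and stroma-like cells, with exact 95% intervals as bars and dotted lines at 2-fold. Foxo1 in granulosa-like cells lay below the 2-fold line in both panels (ratios of 0.289 and 0.307). Foxl2 in stroma-like cells was near 0 in the first panel (ratio 0.909) and below the line in the second (0.277). The first ratio compares unlike classes, since the stroma-like cells of set 2 lacked a kind of cluster that set 1 held. From set 1 to set 2 Foxl2 was lower in Sfrp1-led (3.939 to 2.999) and in Mfap4-led clusters (2.373 to 1.238).

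Foxl2 and Foxo1 were also called lower in theca-like cells of sets 2 and 3 than of set 1, together with Gata4, where 23.4% and 14.9% of all genes were. In stroma-like cells Foxl2 was at 0.909 of its set 1 level in set 2 and at 0.277 in set 3. Lower calls made up 14.4% of all genes in the latter comparison. Foxo1 was at 0.915 and 0.506. A cluster of 526 cells with Thbd and Lamc3 among its leading genes stayed unnamed in set 2 (Foxl2 0.397). Such clusters were stroma-like in sets 1 and 3 (1.52 and 0.469), so the classes are unlike. From set 1 to set 2 Foxl2 went from 3.94 to 3.0 in Sfrp1-led and from 2.37 to 1.24 in Mfap4-led clusters. Foxo1 went from 1.60 to 1.26 and from 0.875 to 0.420. In theca-like cells Foxl2 was at 0.460 and 0.446, Foxo1 at 0.323 and 0.351 and Gata4 at 0.316 and 0.325. Wt1 was called higher there in both sets (3.10 and 3.63) and Gata6 in set 3 only (2.70, against 1.58 in set 2). Theca-like Wt1 was below the myeloid-like level in sets 1 and 2 (0.0592 and 0.305). In set 3 it was at 0.157, between the myeloid-like clusters (0.0968 and 0.167). Theca-like Gata6 was no higher than the myeloid-like level in sets 1 and 2 (0.133 and 0.165). Theca-like Foxo1 was below the myeloid-like clusters in set 2 (0.343) and set 3 (0.639 and 0.334). Higher calls in theca-like cells made up 6.22% and 9.6% of all genes. Over all cells together Foxl2 was at 0.529 and 0.360 and Foxo1 at 0.406 and 0.363. Among 8 genes known to rise when tissue is dissociated, Junb (4.16-fold) and Egr1 (2.15-fold) were called higher in granulosa-like cells of set 2 than of set 1, and Hspb1 (4.26-fold) in set 3, where 6.45% and 9.56% of all genes were called higher. Their part in the differences of the members was not tested.

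The share of cells with a UMI was likewise highest in set 1 for Foxl2, Foxo1, Gata4 and Gata6. At 3000 UMIs per cell, 46.2%, 20.4% and 22.7% of granulosa-like cells had a Foxl2 UMI, and 64.7%, 36.4% and 40.8% had one before thinning. Endothelial-like cells, which should lack Foxl2, gave 4.08%, 2.36% and 2.05% at the same depth, but they were the class of lowest level. Myeloid-like cells were above them, with Foxl2 levels of 0.548 and 0.293 in sets 1 and 2. For Foxo1 the shares were 80.5% (exact binomial interval 79.2 to 81.7), 36.1% and 33.8%, against 12.7%, 13.0% and 7.14% of myeloid-like cells. Gata6 gave 42.8%, 28.8% and 36.6%, against 3.80%, 2.78% and 4.08% of myeloid-like cells. Gata4 gave 20.6%, 19.6% and 13.3%, against 1.28%, 1.52% and 0% of endothelial-like cells, the last with an upper bound of 1.07%. Myeloid-like levels of Gata4 were again above the endothelial-like ones in sets 1 and 2 (0.148 and 0.165). Shallower cells were left out, 208, 110 and 235 of them among GCs.

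At that depth Nr2f2 had a UMI in 16.8%, 11.2% and 14.7% of granulosa-like cells, and in 73.7%, 61.0% and 65.4% of stroma-like cells. Myeloid-like cells gave 3.80%, 7.41% and 13.3% for Nr2f2, so its share in GCs of set 3 was close to that background. Foxo3 had a UMI in 5.85%, 9.06% and 8.93% of granulosa-like cells and in 5.06% (1.40 to 12.5), 4.63% (1.52 to 10.5) and 4.08% (1.12 to 10.1) of myeloid-like cells. These intervals take in the granulosa shares, so the 2 classes were not told apart at this depth. Myeloid-like cells of set 1 had a Foxo3 level of 0.222, and whether they express the gene themselves was not tested.

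Pairs of members were found in the same thinned cell about as often as their shares multiplied for most pairs. Foxl2 with Wt1 departed most in sets 2 and 3, being found in 4.2%, 3.58% and 4.05% of granulosa-like cells against products of 3.85%, 1.69% and 2.52%. Foxl2 with Gata4 was found in 12.1%, 4.76% and 3.77% against 9.51%, 3.99% and 3.02%. These shares mix clusters of different level and are given as a description.

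Foxl2 and Wt1 have an antisense neighbour in the table. Foxl2os starts 11 bases from the Foxl2 start on the other strand and shares 12 bases with it, and Wt1os starts 19 bases from Wt1 and shares none. No source used here states whether counting used the strand, so the reads of shared bases cannot be told apart. Foxl2os had levels of 0.254, 0.146 and 0.0526 in granulosa-like cells. Its ratio to set 1 was 0.575 in set 2 and 0.207 in set 3, where Foxl2 itself had 0.347 in both, so both rows were highest in set 1. From set 2 to set 3 they differed, with ratios of 0.360 for Foxl2os and 0.999 for Foxl2. Wt1os had 110, 87 and 105 UMIs in granulosa-like cells.

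Across 68 clusters of at least 50 cells the genes with the most similar log levels were sought among 12223 genes. These correlations share libraries, depth and cell types and are a description with no test. Foxo1 was most like Esr2 (r = 0.89), the estrogen receptor beta gene of GCs, and Me3 (0.88). Foxl2 was most like Rwdd3 (0.81), with Foxl2os also among its first 5. Wt1 was most like Wt1os (0.89) and Ablim1 (0.84), Gata6 like the N-cadherin gene Cdh2 (0.87), and Nr2f2 like the matrix gene Emilin1 (0.91). Gata4 was most like Casc4 (0.80) and Foxo3 like Mxi1 (0.71). Between members, Foxl2 and Gata4 had r = 0.73, Foxo1 and Gata6 0.69, and Gata6 and Nr2f2 -0.64. Foxo1 and Nr2f2 had -0.37 and Foxl2 and Wt1 0.17.

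**Figure D4:**
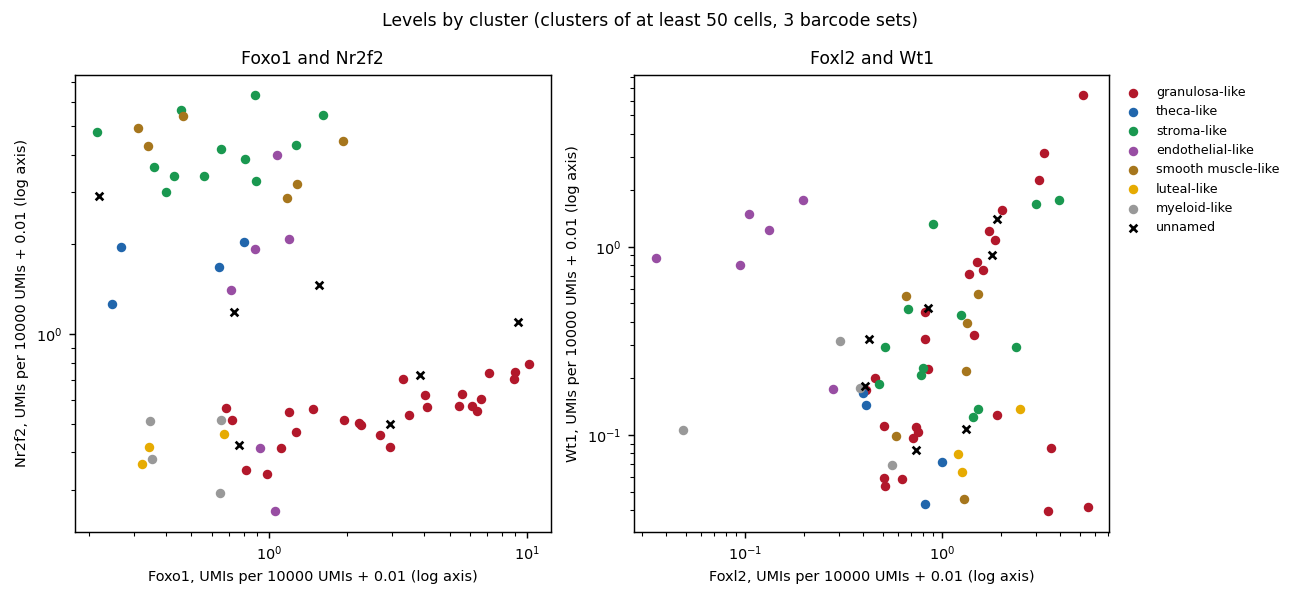
Levels in single clusters on log axes, with 1 point per cluster and colours for the classes of cell, for Foxo1 and Nr2f2 (left) and Foxl2 and Wt1 (right), each as UMIs per 10000 UMIs plus 0.01. Granulosa-like clusters lay at low Nr2f2 over a wide span of Foxo1 and stroma-like clusters at high Nr2f2 (r = -0.37 over the 68 clusters of at least 50 cells), while Foxl2 and Wt1 showed no common line (r = 0.17).

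Other TFs of the ovary gave a frame for the 7. Of a list of 18 lineage TFs, 9, 8 and 10 were called higher and 5, 5 and 4 lower in granulosa-like than in theca-like cells, with median log2 ratios of 0.96, 0.72 and 1.36 against 0.24, 0.32 and 0.26 for all genes. Of all genes 17.7%, 21.5% and 17.5% were called higher and 10.7%, 9.19% and 8.24% lower. Nr5a2, a nuclear receptor of GCs and luteal cells, was 30.4-fold, 11.5-fold and 11.3-fold higher, and Esr2 29.1-fold, 11.1-fold and 7.80-fold. Irx3 was 15.8-fold, 17.1-fold and 21.9-fold higher. Esr1, the estrogen receptor alpha gene of the theca and stroma, was at 0.211, 0.205 and 0.199 of its theca level and Lhx9 at 0.137, 0.123 and 0.109.

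Between sets, 4 of the 18 TFs were called higher and 3 lower in granulosa-like cells of set 2 than of set 1, and 4 higher and 5 lower in set 3, with medians of -0.31 and -0.26. Over all genes 6.45% were higher and 18.2% lower in set 2, and 9.56% and 13.3% in set 3, with medians of -0.45 and -0.12, so the lower calls of set 2 were near the background. Runx1, which ovulatory signals are known to induce in GCs, was 5.52-fold and 10.7-fold higher, and Runx2 3.20-fold and 55.8-fold. Esr2 was at 0.491 and 0.334 and Nr0b1 at 0.246 and 0.0995 of the set 1 level.

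Of 12 genes known to respond to FOXO factors, 2 were called higher and 4 lower in granulosa-like cells of set 2 than of set 1, with a median log2 ratio of -0.24, which lies above that of all genes (-0.45; 6.45% called higher and 18.2% lower). Ccng2 (4.75-fold) and Gadd45a (4.80-fold), linked to arrest of division and to stress, were higher, and Txnip (0.297), Pik3ip1 (0.382) and Sesn1 (0.389) lower. In set 3 none of the 12 was called higher and 3 were lower, Txnip at 0.361 and Pik3ip1 at 0.473 among them, with a median of -0.65 against -0.12 for all genes (9.56% called higher and 13.3% lower).

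Of the 11 paralogs of the members, 6, 6 and 4 had enough UMIs in the comparison with theca, and 7, 7 and 6 in that with stroma. Nr2f1, the sister gene of Nr2f2, was at 0.0315, 0.0165 and 0.0190 of its stroma level in granulosa-like cells, on 9, 4 and 6 UMIs there. Of 7 testis-side genes, 5 had enough UMIs in the comparison with theca in each set, of which 2, 1 and 1 were called higher (17.7%, 21.5% and 17.5% of all genes) and 2, 3 and 2 lower (10.7%, 9.19% and 8.24%). The higher calls of sets 2 and 3 were thus near the background. Cyp26b1, a retinoic acid degrading enzyme gene, was lower in every set. Dhh, a hedgehog ligand gene that GCs also express, was called higher in granulosa-like than in theca-like cells (11.1-fold, 12.8-fold and 8.98-fold). Sox9, which FOXL2 is known to repress, was called lower in granulosa-like than in stroma-like cells in every set (0.307, 0.449 and 0.196). Its granulosa-like level was 0.0422, 0.0902 and 0.0403 in sets 1, 2 and 3, called 2.14-fold higher in set 2 than in set 1.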

How the data were processed

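The authors deposited one table for the 3 libraries, mapped to mm10 with Cell Ranger and normalised with Seurat per the labels (versions not given in the sources used here), as natural log values of 1 plus UMIs per 10000 of a cell. Taking each cell's smallest step as 1 UMI turned 100% of the values above 0 into whole counts (tolerance 0.01), and the cells held 500 to 133658 UMIs. All of the table's cells were kept.

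Each barcode set was clustered on its own (Scanpy 1.11.5, python-igraph 0.11.9; 2000 variable genes, 30 components, 15 neighbours, Louvain resolution 1) without the members and listed genes. Clusters were named by marker lists. The score thresholds for naming (0.15 for granulosa, 0.3 for other classes) were adjusted several times after the clusters had been seen, in a view that once listed Wt1 and Foxo1 among leading genes. Scrublet's method marked 43 cells (0.135%), too few to have worked, so no cell was removed, and removal of the 8% highest scores was an alternative.

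The members, gene lists and comparisons were chosen with earlier results of these data known. All 7 members were named by rule, together with their antisense rows and the lists. The cluster kinds, and the listed genes given with values, were picked after values were seen. Levels, intervals and calls were computed as stated in the report, and the call rule was tested on simulated data. No column of values went unused.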

Additional observations from a re-analysis of the deposited data

Results flagged for a closer look

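Several ratios ran in opposite directions between sets or classes, each by at least 1.2-fold. These differences were not tested, since every group is 1 set of cells. The granulosa to stroma ratio of Foxl2 was 1.27 in set 1 and 1.59 in set 3, but 0.486 in set 2. The stroma-like cells of set 2 lacked a kind of cluster that sets 1 and 3 held. Of the stroma-like clusters in set 2, the Sfrp1-led (3.0) and Mfap4-led (1.24) ones were above the granulosa-like Foxl2 level. The Pclaf-led one (0.793) was below it. Between antral mural-like and preantral-like GCs the ratio of Foxl2 was 1.73 in set 1 and 0.189 in set 2. That of Foxo1 was 1.35 and 0.363. Both classes were made of different clusters in each set. For Gata4 the granulosa to theca ratio was 0.574 in set 1 and 1.61 in set 2.

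The set 2 to set 1 ratio of Foxo3 was 1.52 in granulosa-like and 0.535 in theca-like cells, and its set 3 to set 1 ratio was 1.45 in granulosa-like and 0.585 in stroma-like cells. For Gata6 the set 2 to set 1 ratio was 0.571 in granulosa-like and 1.58 in theca-like cells, the set 3 to set 1 ratio was 0.742 and 2.70, and the set 3 to set 2 ratio was 1.30 in granulosa-like and 0.559 in stroma-like cells. The theca-like Gata6 levels of sets 1 and 2 were no higher than those of myeloid-like cells (0.133 and 0.165), so these theca-like ratios start from a low level.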

How the results depend on the processing

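Of 121 alternative values of the counts of called members, 108 stayed within 1.5 times the count reported and 13 did not. With the mean of the deposited natural log values, which compresses ratios, the granulosa over theca counts became 2, 0 and 0 in sets 1, 2 and 3, the granulosa over stroma counts 0 in sets 2 and 3, the antral mural against preantral count 1 in set 1, and the counts between sets 1 for set 2 over 1 and 1 for set 3 over 1. The antral mural against preantral count of set 1 was also 1 with the 50 most abundant genes left out and 1 with cells gated by markers. Its Gata4 and Gata6 calls were lost at Louvain resolution 2 and at a granulosa score of 0.3 as well. At that score Foxo1 and Foxo3 were past 2-fold instead, Foxo3 on only 3 UMIs in the preantral-like cells. With a granulosa score of at least 0.3, an alternative chosen after seeing the data, the granulosa over stroma count was 1 in set 2 and the counts between sets were 4 for set 2 over 1 and 4 for set 3 over 1. The 38 called ratios kept their direction in 418 of 418 recomputations under 11 alternatives and stayed past 2-fold in 375. Of the 43 that did not, 26 came with the natural log mean and 7 with marker gates. Some of the 418 could not change. Leaving out the cluster of higher luteal score alters only ratios with GCs of set 3. Adding the Rnase1-led clusters alters only ratios with GCs of sets 1 or 2. Of the 11 alternatives, 8 were planned. Of each member's 5 most similar genes, 2 to 5 stayed with a pseudocount of 0.5 in place of 0.1, and 5 of 5 with a minimum of 100 UMIs. No paired analysis was possible because each time point has 1 library. Leaving out a replicate was not possible either, for the same reason. Depth limits ratios with few UMIs on 1 side, such as that of Wt1 over theca in set 1 (8.08 to 13.5).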
